A study of Drosophila melanogaster with 4 samples.

Results

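Peaks on the mapped heterochromatic scaffolds had low scores and small widths. Of these peaks, 55.4% had another peak within 500 bp, close to the 54.7% of arm peaks. The heterochromatic peaks are the 287 of 9485 regions in the authors' peak list that lie on a sequence whose name ends in Het. They are a share of 3.03% (exact 95% binomial interval 2.69 to 3.39%, for counting error only). The rule used the sequence name alone, so score, width and spacing played no part in the choice. By scaffold there were 18 peaks for 2LHet, 102 for 2RHet, 101 for 3LHet, 63 for 3RHet, 2 for XHet and 1 for YHet.

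The list comes from chromatin of Drosophila melanogaster embryos, studied by chromatin immunoprecipitation and sequencing (ChIP-seq), which enriches DNA that was crosslinked to a protein. All libraries, 2 from ChIP and 2 from input DNA (chromatin that was not enriched), carry the labels strain Hr46-GFP, genotype PBac{y[+]-attP-3B}VK00033, embryo stage 0-8, sex unknown and a transgene with the Hr46 genomic coding region. The titles name TCF and nonISO1, the antibody field names tango, and the extract protocol describes another fly stock and another egg-laying window, so the peaks are not assigned here to 1 of the 3 proteins. Tango is the fly partner of several basic helix-loop-helix PAS proteins, TCF is the DNA-binding factor of Wingless signalling, and Hr46 belongs to the nuclear receptors. The list holds no values per library, so no number below has an error between replicates, read depth is unknown, and differences between classes of peaks are given as descriptions without a test.

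Heterochromatin is the part of the genome that stays compact through the cell cycle. In flies it surrounds the centromeres, makes up the Y chromosome, and is built mostly of simple satellite repeats and of transposable elements, many of them old and broken copies, with few genes between them. It is typically marked by methylation of histone H3 at lysine 9 and bound by HP1. In release 5 of the fly genome, which the file header names, the parts that could be assembled and assigned to a chromosome arm but not joined to it were kept as separate scaffolds (2LHet, 2RHet, 3LHet, 3RHet, XHet and YHet). Sequence that could not be assigned to a chromosome went into the collections U and Uextra. Reads from repeats can match many places, and how such reads were placed is not given in the sources used here. Sequence and annotation of this release were not used here, so no repeat family or gene is named from a position.

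Scores, the peak caller's own values on an unstated scale, were low on these scaffolds. The median was 12.9 (first to last quartile 10.7 to 16.8, range 6.41 to 148.94). It was 42.3 over all 9485 peaks, 17.7 on the chromosome arms, 50.1 on U and 49.9 on Uextra. Uextra held 6998 of the 9485 peaks (73.8%), so values over all peaks mostly reflect Uextra. Scores under 15 were given to 192 of the 287 peaks (66.9%, exact interval 61.1 to 72.3%), where 18.4% of all peaks and 36.6% of arm peaks scored that low. At the other end, 12 peaks (4.18%) reached 30, a score that 59.1% of all peaks and 15.0% of arm peaks reached. Among the 1000 lowest scores of the list, which ended at 12.21, 120 belonged to heterochromatic scaffolds. Among the 1000 highest, which began at 74.03, 2 did. The heterochromatic scaffolds therefore made up 12.0% of the lowest 1000 and 0.20% of the highest 1000. Arm peaks, 17.6% of the list, made up 36.7% of the lowest 1000 and 10.3% of the highest 1000.

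A median score below that of the arms was shared by the scaffolds with 10 or more peaks. The median score was 16.1 on 2LHet, 13.0 on 2RHet, 12.9 on 3LHet and 11.9 on 3RHet. Each lay below the median of the chromosome arm of the same name, which was 17.6 on 2L, 17.7 on 2R, 17.7 on 3L and 17.0 on 3R. The gap was smallest for 2LHet, where the median rests on 18 peaks. Scores under 15 were no more frequent on 2LHet than on the arms. They were given to 6 of its 18 peaks (33.3%), against 38.0% of peaks on 2L and 36.6% of arm peaks. The quartiles of the larger scaffolds overlapped almost fully, from 10.7 to 16.2 on 2RHet, from 10.7 to 16.9 on 3LHet and from 9.83 to 16.1 on 3RHet, so these 3 medians sit well within the spread of peaks on any one of them.

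**Figure D1:**
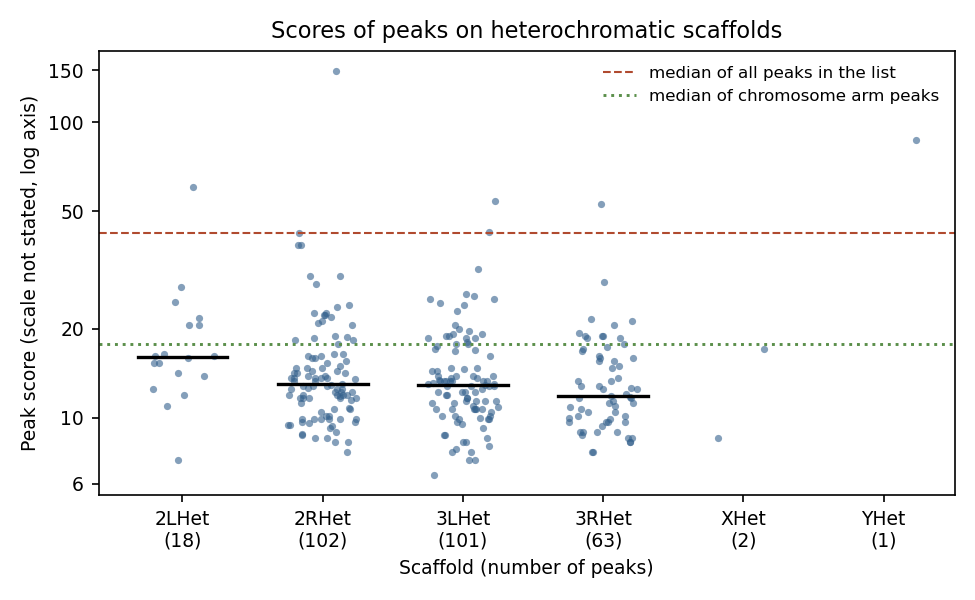
Score of each of the 287 peaks (log axis, scale not stated) by heterochromatic scaffold, with the number of peaks in brackets. Black bars are medians of scaffolds with 10 or more peaks, the dashed line is the median of all peaks (42.3) and the dotted line that of arm peaks (17.7); the 4 black bars, from 11.9 to 16.1, lie below both lines.

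Peaks of the long arms close to the centromere had scores between those of the heterochromatic scaffolds and those of the rest of the long arms. In the 10% of the span of each long arm nearest its centromere, 288 peaks had a median score of 15.3 (quartiles 11.5 and 19.7), while the 1367 other peaks of the 5 long arms had a median of 18.4. Without 2L, the centromeric 10% had a median of 15.0 over 160 peaks. Width showed the same order, with medians of 369 bp on the heterochromatic scaffolds, 420.5 bp in the centromeric 10% of the arms and 515 bp on the rest of the long arms. With arm peaks of 100 or more left out, the median of the arms was 17.2. Chromosome 4, counted with the arms, had 13 peaks with a median score of 13.05 and a median width of 335 bp. Of these, 7 (53.8%) scored under 15 and 5 (38.5%) were under 300 bp wide. Both medians were nearer to those of the heterochromatic scaffolds than to those of all arm peaks, but rest on 13 peaks.

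The few high scores were spread over different scaffolds. The highest, 148.94, belonged to a 328 bp peak on 2RHet from 15 to 342 (release 5), the first peak of that scaffold and rank 68 in the whole list. It was the only one of the 287 to reach 100, which 1.76% of all peaks did. The single peak on YHet, from 137060 to 137435, scored 86.71 and ranked 361. On 2LHet the highest score, 60.58, fell on the last peak of the scaffold, from 368110 to 368872. Thus the strongest peaks of 2LHet and 2RHet were both outermost peaks. Lengths of the scaffolds were not used here, so the distance of the 2LHet peak from the end of its scaffold is not given.

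The strongest peaks of 3LHet and 3RHet had other peaks on both sides. On 3LHet, 2 adjoining peaks 240 bp apart, from 2245053 to 2246164 and from 2246405 to 2246955, scored 42.5 and 53.96, so this site was strong over 1903 bp. On 3RHet the highest score was 53.04, for a peak of 364 bp from 1599175 to 1599538 whose nearest other peak lay 11574 bp away. Past these, the 10 highest scores held 3 more peaks on 2RHet and 1 on 3LHet. The 2RHet peaks lay from 1362419 to 1362833 (score 42.26), from 1636494 to 1637293 (38.43) and from 1266222 to 1266731 (38.38). The 3LHet peak lay from 2183724 to 2184099 (31.86).

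At the bottom of the scale, the lowest score was 6.41, on 3LHet from 566621 to 566822, a value that is also the lowest of the whole list. The lowest scores of the other larger scaffolds were 7.23 on 2LHet from 215476 to 215721, 7.66 on 2RHet from 1092406 to 1092606, and 7.66 on 3RHet, where 2 peaks shared it, from 1033208 to 1033519 and from 1051064 to 1051266. XHet carried 1 peak from 186463 to 186676 with a score of 8.53 and 1 from 196266 to 196674 with a score of 17.11, with 9589 bp between them.

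Scores recurred. The 287 peaks had 119 distinct scores, and 261 of them shared their exact score with at least 1 other peak of the list. Scores recurred in the other classes too, with 563 distinct scores over 1668 arm peaks, 272 over 523 on U and 969 over 6998 on Uextra. The whole list had 1390 distinct scores over 9485 peaks. The share of peaks with a repeated score was not computed for the other classes. The count of 261 is therefore not read as particular to the heterochromatic scaffolds. For 247 of the peaks, an arm peak had the same score to the last digit. The score of the YHet peak was also that of 3 arm peaks, 1 peak on U and 19 on Uextra. The other 26 peaks had a score that no other peak had.

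Peaks on the heterochromatic scaffolds were narrow. Their width had a median of 369 bp (quartiles 254.5 and 564.5 bp, range 201 to 4637 bp), against 559 bp over all peaks, 498 bp on the arms, 857 bp on U and 565 bp on Uextra. Under 300 bp there were 104 peaks (36.2%, exact interval 30.7 to 42.1%), compared with 15.4% of all peaks and 22.0% of arm peaks. The shortest of these peaks were as short as the shortest of the whole list, at 201 bp. At 1000 bp or more there were 31 peaks (10.8%), compared with 8.27% of all peaks, 22.1% of arm peaks and 42.6% of peaks on U. By scaffold, the median width was 566 bp on 2LHet, 417.5 bp on 2RHet, 335 bp on 3LHet and 358 bp on 3RHet. The 2LHet median, over 18 peaks, was above that of 2L (477 bp), of the arms and of all peaks.

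The 3 widest peaks lay on 2RHet and 2LHet. The widest, 4637 bp from 3283911 to 3288547, was the last peak of 2RHet and scored 30.30. The next, 2798 bp on 2LHet from 266262 to 269059, scored 21.78. A 2RHet peak of 2542 bp, from 2935981 to 2938522, scored 22.28 and had its nearest neighbour 53246 bp away. All 3 scored above the median of 12.9, and none was among the 10 highest scores.

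Scores were lower than on the arms at matched width as well. Among peaks under 300 bp, the median score was 10.4 on the heterochromatic scaffolds and 11.4 on the arms. From 300 to under 500 bp it was 13.1 against 16.2, from 500 to under 1000 bp 14.2 against 19.6, and at 1000 bp or more 19.0 against 22.0. The quartiles overlapped in every width class. U and Uextra differed most among wide peaks, with medians of 70.8 and 65.4 at 1000 bp or more. Wider peaks tended to score higher within the heterochromatic scaffolds too. Spearman's rho between the score and the width reached 0.60 over the 287 peaks, 0.55 for 2LHet, 0.63 for 2RHet, 0.52 for 3LHet and 0.67 for 3RHet (18, 102, 101 and 63 peaks), against 0.53 over the arm peaks. These coefficients are descriptions across peaks of 1 list, which share their libraries.

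**Figure D2:**
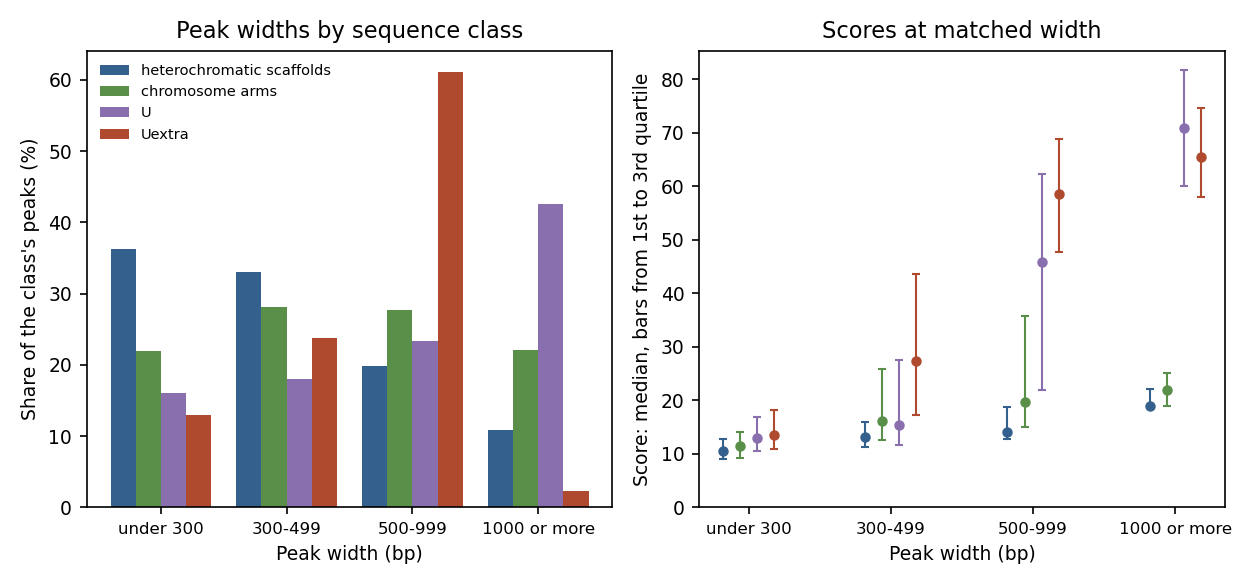
Left, share of each sequence class's peaks (%) in 4 classes of width (bp); right, median score (scale not stated) of the same classes, with bars from the first to the last quartile. Heterochromatic scaffolds have 36.2% of their peaks under 300 bp, and their median score is below that of the arms in each width class (10.4 against 11.4 in the narrowest, 19.0 against 22.0 in the widest).

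Pooled over the scaffolds, heterochromatic peaks were denser than those on the arms and sparser than those on the unplaced collections. Between the outermost peaks of each scaffold, summed over all 6, there were 34.6 peaks per Mb covering 1.78% of the span, against 14.0 peaks per Mb and 1.07% on the arms. U had 52.4 peaks per Mb (5.43% of its span), Uextra 243.7 (13.5%) and the whole list 57.1 (3.52%). With peaks within 500 bp merged, the heterochromatic scaffolds had 22.6 sites per Mb, a value not computed for the other classes. Without merging, the density in the centromeric 10% of the long arms was 27.0 per Mb, or 18.9 per Mb without 2L. Among the larger scaffolds the density was 56.8 per Mb for 2LHet, 42.8 for 3LHet, 31.0 for 2RHet and 27.1 for 3RHet. The 2LHet value was above that of U, and refers to a span of 0.317 Mb. The other larger scaffolds had spans of 2.36 Mb on 3LHet, 3.29 Mb on 2RHet and 2.33 Mb on 3RHet. The covered share had the same order as the density. It went from 4.32% of the span for 2LHet and 1.91% for 3LHet to 1.76% for 2RHet and 1.30% for 3RHet. XHet and YHet, with 2 and 1 peaks, added only 0.0102 and 0.000376 Mb to the summed span. Spans leave out sequence beyond the outermost peaks, and scaffold lengths were not used, so density over full lengths is not given.

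Distances between neighbours ranged widely. Of the 281 gaps between neighbouring peaks on the same scaffold, 26 were at most 100 bp, 99 at most 500 bp and 164 (58.4%) at most 5000 bp. Gaps of at most 5000 bp made up 71.2% in the whole list, 52.1% on the arms, 51.5% on U and 77.7% on Uextra. At the same time 29 gaps exceeded 100 kb, the largest being 373.9 kb on 3RHet. On the arms 400 of 1662 gaps exceeded 100 kb, and in the whole list 454 of 9470. The counts were 23 of 522 on U and 2 of 6997 on Uextra. Of the 1662 gaps on the arms, 235 were at most 100 bp and 654 at most 500 bp. In the whole list 427 and 2219 of 9470 gaps were that short. Relative to these totals, short gaps on the heterochromatic scaffolds were rarer than on the arms and more frequent than in the whole list. The same order held for gaps over 100 kb. The median gap on the heterochromatic scaffolds was 1592 bp, compared with 2226.5 bp in the whole list, 2578 bp on the arms, 4814.5 bp on U and 2102 bp on Uextra. It was 407 bp for 2LHet, 1219 bp for 2RHet, 1624 bp for 3RHet and 2221.5 bp for 3LHet. The spans held both dense and empty stretches. Within the spans, 7 of 33 windows of 100 kb on 2RHet, 6 of 24 on 3RHet and 4 of 24 on 3LHet held no peak midpoint.

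The 4 fullest windows of 100 kb each lay on a different scaffold. On 2LHet, 14 of the 18 peaks fell between 200001 and 300000, with a median score of 16.1. On 3LHet the window from 500001 to 600000 held 13 peaks (median score 13.6), on 3RHet that from 1000001 to 1100000 held 12 (12.1), and on 2RHet that from 1200001 to 1300000 held 11 (16.2). With each span divided into 5 equal bins, 3LHet had 32 of its 101 peaks in the second bin and 12 in the first. On 2RHet 28 of 102 peaks lay in the second bin, and on 3RHet 21 of 63 lay in the middle bin and 4 in the last. The median score of the bins moved little on these scaffolds, from 11.8 to 13.9 on 2RHet, from 11.2 to 13.7 on 3LHet and from 10.7 to 13.0 on 3RHet.

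Another peak within 500 bp was found for 159 of the 287 peaks (55.4%, exact interval 49.4 to 61.2%), where 39.0% of all peaks and 54.7% of arm peaks had one. The share was 72.2% for 2LHet, 64.7% for 2RHet, 52.4% for 3RHet and 46.5% for 3LHet. Neighbours share this property, so the interval is narrower than the number of separate sites would give. The share differed from that of the arms by less than its interval, but against the arms more of the peaks lay in pairs and fewer in runs. Peaks no more than 500 bp apart were joined into 188 groups, with 128 single peaks, 42 pairs, 13 groups of 3 to 4 and 5 runs of 5 or more. Pairs held 29.3% of heterochromatic peaks, compared with 22.7% of all peaks, 12.7% on the arms, 22.2% on U and 24.9% on Uextra. Runs held 11.1% of heterochromatic peaks, compared with 5.47% of all peaks, 23.0% on the arms, 3.06% on U and 1.24% on Uextra. The share in runs was thus below that of the arms and above that of the whole list.

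Low scores were general among single and neighbouring peaks. Scores under 15 were given to 71.9% of single peaks and 62.9% of peaks with a neighbour, against 39.2% and 34.4% on the arms. In 24 of the 42 pairs both peaks scored under 15. This share was not computed for the other classes, so it is not read as a trait of pairs. The median gap inside a pair was 216.5 bp, and the median length of a pair was 983 bp. Of the pairs, 18 belonged to 3LHet, 13 to 2RHet, 10 to 3RHet and 1 to 2LHet. The pair on 3LHet with scores of 42.5 and 53.96, described above, held the highest score of any heterochromatic peak with a close neighbour.

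**Figure D3:**
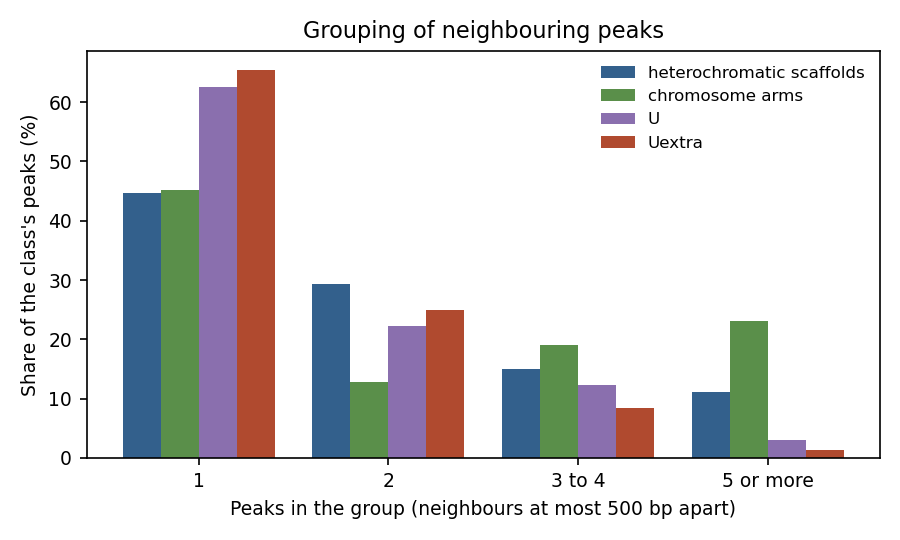
Share of each sequence class's peaks (%) by the number of peaks in their group, where neighbours at most 500 bp apart are joined. Pairs hold 29.3% of heterochromatic peaks, against 12.7% on the arms, 22.2% on U and 24.9% on Uextra, and groups of 5 or more hold 11.1%, against 23.0%, 3.06% and 1.24%.

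Few single peaks on the heterochromatic scaffolds scored high. On the heterochromatic scaffolds the 128 single peaks had a median score of 12.2 (quartiles 9.94 and 16.0) and the 159 with a neighbour a median of 13.6 (11.2 and 17.5). On the arms both medians were 17.7, but the upper quartile of single peaks was 39.7 and that of grouped peaks 21.95. The long upper range of single arm peaks therefore had little counterpart on the heterochromatic scaffolds, where the 95th percentile of single peaks was 31.3 against 176.5 on the arms. Single peaks were narrower than grouped ones on the heterochromatic scaffolds, with median widths of 328.5 and 423 bp.

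The 5 runs held 32 peaks and covered 3071 to 8858 bp each. The run with most peaks lay on 2RHet from 1270255 to 1278528, with 9 peaks over 8274 bp that covered 85.8% of it and scored up to 28.4. A run of 7 peaks on 2LHet, from 261406 to 269814, extended over 8409 bp, was covered to 84.6% and scored up to 24.74. A run of 6 peaks on 3RHet, from 1196497 to 1200454, was 3958 bp long and scored up to 18.98. The other runs had 5 peaks each, on 2RHet from 3279690 to 3288547 (8858 bp, highest score 30.3), which ended with the last peak of that scaffold, and on 3LHet from 1012654 to 1015724 (3071 bp, highest score 18.67). Without 2RHet there were 3 runs, and with a gap limit of 200 bp there was 1. Scores in runs had a median of 15.0, and their highest value was 30.3.

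Run lengths fell into long and short ones. Of the 5 runs, 3 were between 8 and 9 kb long, as were 31 of 60 runs on the arms (51.7%), whereas 0 of the 3 runs on U and 0 of the 16 on Uextra were. This length class was taken over from earlier results on the arms. The long runs on 2LHet and 2RHet with 7 and 9 peaks had similar starts over their first 6 peaks, a comparison chosen after the values were seen. Measured from the start of each run, peaks began at 0, 768, 1858, 2666, 3678 and 4856 bp on 2LHet and at 0, 555, 1925, 2689, 3402 and 4837 bp on 2RHet, so that starts differed by at most 276 bp. The scores of these peaks were 16.2, 24.74, 11.98, 14.16, 20.61 and 21.78 on 2LHet and 16.2, 24.03, 14.73, 15.31, 28.4 and 21.95 on 2RHet. In both runs the second peak and the last pair of these scored above 20, and the others below 17. The next peak began at 7894 bp on 2LHet and at 6704 bp on 2RHet, so the likeness ended there. The first start is 0 in each run by definition, and runs on the arms were not compared in this way. The long run with the last peak of 2RHet had another layout, with peaks beginning at 0, 1021, 2180, 3891 and 4221 bp.

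**Figure D4:**
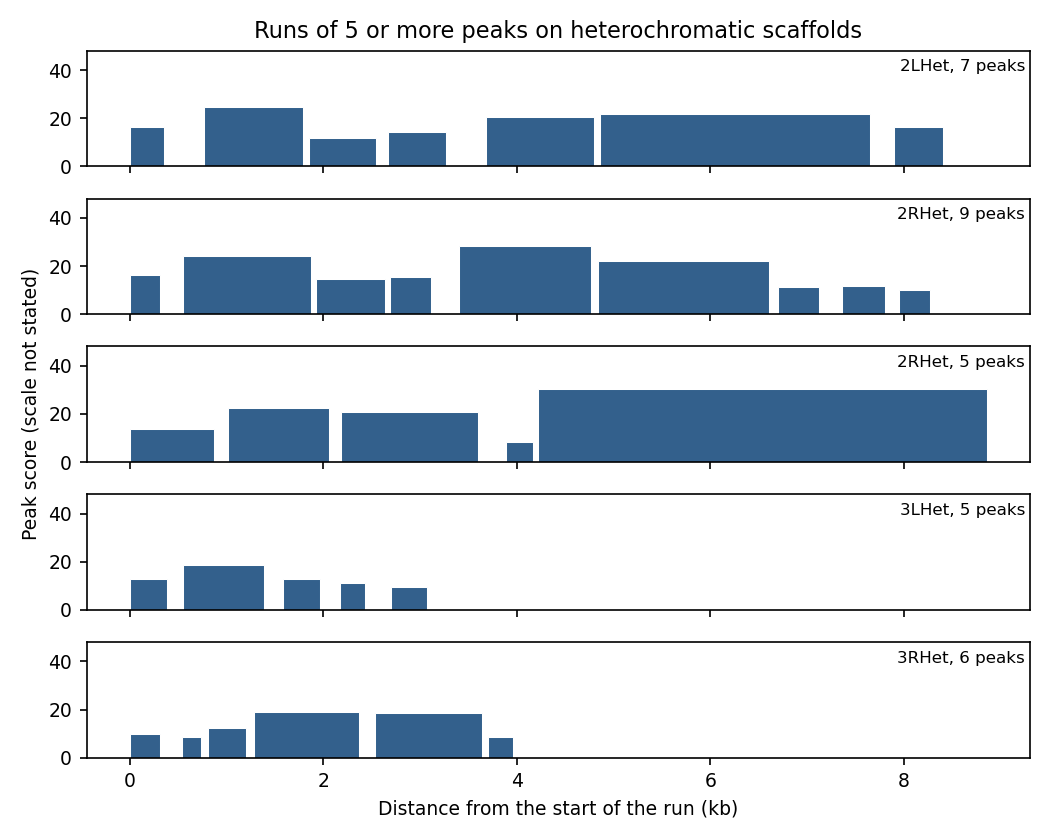
Peaks of the 5 runs on heterochromatic scaffolds, drawn as bars from first to last base by distance from the start of the run (kb), with the peak score as height (scale not stated). The upper panels show the 2LHet and 2RHet runs of 8409 and 8274 bp, whose first 6 peaks begin at distances that differ by at most 276 bp. This comparison was chosen after the values were seen, and the next peaks begin at 7894 and 6704 bp.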

How the data were processed

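All results come from 1 deposited peak list of the series, which names no library. Per the file headers its coordinates are on FlyBase release 5, and MACS is named as the source of each peak. The score of each peak was deposited by the authors without a unit, and is the authors' value. BWA, MACS2, CASAVA 1.7.0.2, CASAVA 1.7.0.3 and BDGP5 come from the submitters' processing notes, which give no roles. The sources used here do not give the peak threshold, the use of the input or the pooling of replicates.

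Width counts both end bases, and windows and bins use midpoints. Gaps are the bases between neighbouring peaks, grouped at 500 bp or less. Spans run between outermost peaks. Intervals are exact (Clopper-Pearson) and cover counting error only. Named peaks are the 10 highest scores, the highest and lowest on each scaffold, the 3 widest, those on scaffolds with under 10 peaks, and the 3 runs with most peaks. The other 2 runs were added after their values were seen. The members, score limits of 15, 30 and 100, width limits and classes were chosen with earlier results of these data known. Grouping was tested on simulated data with planted groups whose gaps lay far from the 500 bp limit. This checked the code only, not the choice of limit. A gene table on release 6 was at hand and not used, since the builds differ. Tools were Python 3.11.15, matplotlib 3.10.9, scipy 1.17.1, numpy 2.4.6 and pandas 2.3.3.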

Additional observations from a re-analysis of the deposited data

How the results depend on the processing

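No paired analysis was possible because the only file is a single list without values per library, and so no replicate could be left out either. Among the 4742 highest scores, 7 heterochromatic peaks were left (0.148%), with a median score of 53.96, a median width of 415 bp, a neighbour within 500 bp for 28.6%, 0 runs and a rho of score and width of -0.46. Among the 1000 highest, 2 were left (0.20%), with a median score of 117.8, a neighbour for 0% and 0 runs, and rho was not computed. Cutting on the score raises the median score by construction, and 7 peaks give no stable coefficient. Merging peaks within 500 bp gave 188 sites (2.59% of all merged sites), a median width of 454.5 bp and 22.6 sites per Mb. Of the peaks on arms and heterochromatic scaffolds alone, the latter held 14.7%. The share with a neighbour was 29.6% at 200 bp and 65.5% at 1000 bp. Runs numbered 1 at 200 bp, 18 with 3 or more peaks and 3 without 2RHet. Pearson's r on log2 values was 0.49. In all, 23 of 46 alternatives kept their value within its interval or, for counts and densities, within 1.5 times; they include the median score and the median width without each of 2LHet, 2RHet, 3LHet and 3RHet in turn. Read depth is unknown, and limits of it on weak peaks could not be judged.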
